A study of Mus musculus with 48 samples.

Results

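The mRNAs of the mitochondrial ribosomal proteins were followed in 2 mouse fibroblast lines while new transcription was blocked. The members are the genes whose symbol begins with Mrpl or Mrps and a number (large and small subunit, respectively) and which at least 1 probe set names alone in the array's annotation. They were 76 of 18193 genes with such a probe set: 47 carry a large-subunit symbol and 29 a small-subunit symbol. Each gene was represented by its brightest probe set, and all 76 passed the filter on low values, among 12999 genes tested.

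Both lines came from littermate embryos of strain 129/B6 at E14.5, prepared from the whole embryo without head and organs, from parents heterozygous for Zfp36. The WT line was Zfp36 +/+ and the KO line Zfp36 -/-; Zfp36 encodes tristetraprolin (TTP), which binds AU-rich elements of mRNAs and promotes their decay. The labels appear to describe 1 line of each genotype, so that genotype and line cannot be told apart. Cells of both lines were kept for 16 h in 0.5% serum, received 10% serum for 90 min, and were then harvested before (0 min) or 30, 60, 90 or 120 min after addition of actinomycin D, which blocks transcription. The dose is written as 0.5 ug/ml in the sample names and 5 ug/ml in the series text, and which of these was used is not settled here. Each sample pooled 3 dishes of 100 mm, and 5 experiments on 5 days carried both lines side by side. The 10 groups hold 5 arrays each, except KO at 0 min (4, without replicate 5) and KO at 60 min (4, without replicate 4), giving 25 WT and 23 KO arrays. Each of these arrays comes from cells that had received serum, and no serum-deprived sample is among them.

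Mitochondria build their own ribosome to translate the few proteins that mitochondrial DNA encodes, all of them core subunits of the respiratory chain and ATP synthase. Its RNAs come from mitochondrial DNA, whereas all of its proteins are encoded in the nucleus, made in the cytosol and imported. Some of these proteins have relatives in bacterial ribosomes, and others are found only in mitochondria. Their genes are widely expressed at moderate levels, and GABP (an ETS-family factor), NRF1 and YY1 are known activators of many nuclear genes for mitochondrial proteins.

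The promoters were searched for the letters these factors bind, and members described later are shown first. RefSeq sequences around the start (GRCm38.p6; 250 bases before to 50 after, the first start listed per gene) were found for 67 members, of 27025 genes in the table and 10458 of the genes tested. Lines below give the 120 bases before the start on the gene's own strand, with capitals marking matches on either strand to CCGGAAG (the ETS core bound by GABP), GCGC followed by any 2 bases and GCGC (NRF1), AAGATGGC (YY1) or ACTACA followed by any 2 bases and TCCC (the motif of ZNF143). The last of these was added to the search after the sequences had been seen. Mrpl32 and Mrps22 are shown because their mRNAs fell under actinomycin D in both lines, Mrpl42 because its mRNA was lower in KO and rose in both lines, and Mrpl34 because an ETS and a ZNF143 match overlap in it. They lie at chr13:14613038-14613157 (- strand), chr9:98601680-98601799 (- strand), chr10:95501950-95502069 (- strand) and chr8:71464806-71464925 (+ strand), respectively.
Mrpl32: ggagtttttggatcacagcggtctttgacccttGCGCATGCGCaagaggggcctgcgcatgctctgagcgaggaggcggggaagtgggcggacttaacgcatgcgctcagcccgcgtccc
Mrps22: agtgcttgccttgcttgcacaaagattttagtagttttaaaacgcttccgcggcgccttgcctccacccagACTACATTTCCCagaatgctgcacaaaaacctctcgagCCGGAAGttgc
Mrpl42: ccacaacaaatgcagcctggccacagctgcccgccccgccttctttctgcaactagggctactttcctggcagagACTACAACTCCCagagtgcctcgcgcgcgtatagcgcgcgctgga
Mrpl34: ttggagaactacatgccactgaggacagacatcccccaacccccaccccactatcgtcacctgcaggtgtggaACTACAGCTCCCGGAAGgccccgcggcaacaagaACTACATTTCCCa
The fifth stretch is the whole 41 bases between the starts of Mrpl46 and Mrps11, which lie on opposite strands of chromosome 7 (chr7:78783090-78783130, + strand) and whose mRNAs moved in opposite directions.
Mrpl46 to Mrps11: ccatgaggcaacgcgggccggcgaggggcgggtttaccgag

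Of the 67 members with a promoter sequence, 24 held CCGGAAG (35.8%, against 9.12% of all genes in the table and 16.7% of the genes tested). The YY1 letters were in 12 (17.9%, against 2.88% and 4.43%), and the NRF1 letters in 13 (19.4%, against 6.43% and 12.7%). At least 1 of these 3 was present in 41 members, or 61.2%, against 16.5% of all genes and 29.8% of the genes tested. The ZNF143 letters stood in Mrpl24, Mrpl34, Mrpl42, Mrpl50 and Mrps22 (7.46%, against 1.98% and 4.05%). In Mrpl34 the ETS letters begin inside a ZNF143 match, so the same bases count for both. TATAAA was found in 4 members (5.97%, against 14.2% and 8.07%) and CCAAT in 26 (38.8%, against 37.9% and 38.9%). GGGCGG, the GC box, was in 34 (50.7%, against 35.9% and 61.3%), and the E-box CACGTG in 5 (7.46%, against 7.24% and 9.90%). A start on the opposite strand within 300 bases was listed for 19 of the 67 members (28.4%), against 9.89% of all genes and 15.0% of the genes tested. These are counts of letters and positions in a fixed window, and none was tested. Mrpl13, Mrpl15, Mrpl19, Mrpl38, Mrpl4, Mrpl54, Mrps28, Mrps34 and Mrps35 were not among the 67.

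Values are deposited log2 signals, and the array medians lay between 8.47 and 8.56; their normalisation is not known here. The 5th percentile of the arrays lay between 8.02 and 8.13, which serves as the floor, and the 95th between 10.33 and 10.49. With medians this alike, an mRNA whose signal rises after actinomycin D may only have fallen less than most others. Most fibroblast markers were high in both lines (Col1a1 12.15 in WT and 12.18 in KO, Vim 13.24 and 13.07). The exceptions were Thy1, at the floor (8.12 and 8.08), and Pdgfra in WT (8.92). Of the markers of epithelial, endothelial, blood, muscle and neural cells, all that were measured averaged under 8.7 in both lines except Actc1 (9.07 and 8.93) and Tubb3 (8.91 and 9.76). Of 8 fibroblast markers tested, Pdgfra (8.92 and 10.22) and Col1a2 were higher in KO over the 5 times, and Pdgfrb (10.54 and 10.22), Col3a1, Vim and Fn1 lower; the part of such differences in the results was not tested. All 5 immediate-early genes examined (Fos, Egr1, Ier3, Myc and Jun) fell in both lines by 120 min. At 0 min the Zfp36 probe set read 9.86 ± 0.16 (SD, n = 5) in WT and 9.51 ± 0.16 (SD, n = 4) in KO; no source here places it relative to the disruption, so it does not check the labels. The labels do not say whether the 5 experiments started from separate thawed cultures, so p-values speak for these lines only. They measure the spread of arrays within groups. The main fit has no term for the experiment, so arrays of the same experiment at different times count as independent. For the mean over the 5 times, SEs and p-values can therefore understate the spread between experiments.

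The members' mean signals ran from 8.42 for Mrps27 to 10.87, with a median of 9.73, all above the floor. Arrays of a group differed from each other about as much as for other genes, with a median within-group SD of 0.097 against 0.087. The steadiest member was Mrpl55 (0.054), in the large subunit, and the least steady Mrps6 (0.21), in the small subunit. The mean over all 76 members lay between 9.62 and 9.89 on the 48 arrays, and its 10 group means between 9.70 and 9.78. Levels of different genes come from different probes and are not compared.

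The comparison of the lines asks which of these mRNAs differed between cells with and without TTP, averaged over the 5 times. Members were found on both sides: 28 of 76 were higher in KO and 24 lower (limma, adjusted p under 0.05 over all probe sets tested), with a median difference of 0.015 log2. The lines differed in a large part of the transcriptome, where 30.4% of genes were higher and 26.4% lower (median -0.0055), so neither share of the members stood far from the background. Experiments 1 to 3 alone gave 27 higher and 25 lower, and experiments 4 and 5 alone 26 and 23. The widest differences were Mrpl23, which was 1.74-fold lower in KO, and Mrpl24, which was 1.46-fold higher; both proteins belong to the ring around the exit of the peptide tunnel. Each KO array lay above each WT array for Mrps28, Mrpl36 and Mrpl55 (3.23% of all genes tested did so), and below each WT array for Mrpl23 alone (3.07% of all genes).

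At 0 min the 5 WT arrays gave Mrpl23 signals of 10.07, 10.05, 9.93, 10.00 and 9.95, and the 4 KO arrays 9.32, 9.21, 9.27 and 8.999. The groups did not overlap, and over all times the highest KO array (9.63) stayed below the lowest WT array (9.93). The mean over the 5 times differed by -0.80 ± 0.031 log2 (SE; limma adjusted p = 3.4e-26), with -0.74 in experiments 1 to 3 and -0.94 in experiments 4 and 5. For Mrpl24 the WT arrays at 0 min read 9.88, 9.95, 9.73, 9.80 and 9.73, and the KO arrays 10.53, 10.46, 10.56 and 10.10, the last of these nearest to WT. Its difference of 0.55 ± 0.043 (SE; limma adjusted p = 3.45e-15) came to 0.68 for experiments 1 to 3 and 0.30 for experiments 4 and 5. Other exit-site members were mixed: Mrpl22, which lines the tunnel, was higher in KO (0.20), Mrpl44 was lower, and 2 of the 6 were not called.

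Among the other members higher in KO, Mrps28 (the small-subunit relative of bacterial S1) read 9.51, 9.53, 9.35, 9.49 and 9.45 in WT at 0 min and 9.88, 9.81, 9.90 and 10.03 in KO. The KO values lay above all WT values, and the difference over the 5 times was 0.45 ± 0.027 (SE; limma adjusted p = 9.35e-19). Mrpl36, a small zinc-binding protein of the large subunit, differed by 0.40 (0.33 in experiments 1 to 3 and 0.52 in experiments 4 and 5). Mrpl55, the relative of bacterial L31, differed by 0.38, with KO arrays between 8.93 and 9.16 and WT arrays between 8.56 and 8.74, close to the array median. Mrpl33 and Mrpl1, the latter a protein of the mobile L1 stalk, were higher by 0.27 and 0.25.

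Among the members lower in KO, Mrps6 had WT signals of 10.44, 10.33, 10.46, 10.88 and 10.65 at 0 min and KO signals of 10.00, 10.02, 10.06 and 10.46. The KO array of experiment 4 reached the WT range, and the WT array of experiment 4 stood above the other WT arrays. The difference over the 5 times was -0.46 ± 0.058 (SE; limma adjusted p = 3.42e-09), and a second Mrps6 probe set gave -0.40. Mrps12, the protein of the decoding centre, read 9.59, 9.51, 9.68, 9.63 and 9.62 in WT at 0 min and 9.15, 9.07, 9.16 and 9.38 in KO, again without overlap. Its difference was -0.38 ± 0.029 (SE; limma adjusted p = 2.43e-15), with -0.43 in experiments 1 to 3 and -0.27 in experiments 4 and 5. The probe sets of Mrps6 and Mrps12 are of the _s_at type, which can match more than 1 transcript. Those of Mrpl9, Mrpl37, Mrpl38 and Mrps24 are of this type too.

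Mrps12 lies on chromosome 7, as does Zfp36, with 13 protein-coding genes of the GRCm38.p6 annotation between them. Of the 6 of these that were tested, Paf1 (0.11) and Med29 (0.10) were higher in KO, Fbxo17 was lower (-0.32), and 3 were not called; these 3 genes are named because of their values. The place of Mrps12 near the disrupted gene was a fact of the map only, and its part in the difference was not tested. In all, 6 members lie on chromosome 7, Mrpl23 among them. The remaining named members lower in KO were Mrpl42 (-0.34), a mitochondria-specific protein, Mrpl4 (-0.27), which reaches into the peptide tunnel, and Mrpl15 (-0.26), a core protein of the large subunit. The Mrpl15 probe set is of the _x_at type, which can cross-react, and 4 of its 5 other tested probe sets were also lower past the threshold. Probe sets of the _x_at type also represent Mrpl11, Mrpl28 and Mrpl44.

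**Figure D1:**
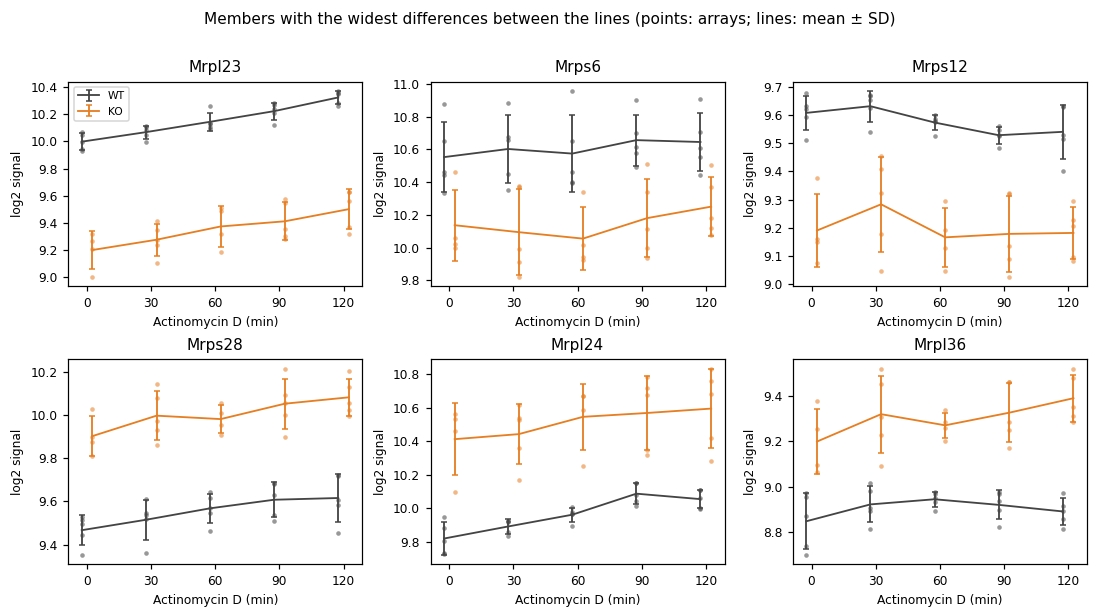
Log2 signal of 6 members at 0, 30, 60, 90 and 120 min of actinomycin D, with 1 point per array and lines through group means ± SD (WT grey, KO orange). Mrpl23, Mrps6 and Mrps12 run lower in KO and Mrps28, Mrpl24 and Mrpl36 higher at each time, and the vertical scale differs between panels.

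By structural group, the bacterial-type large-subunit proteins had 16 of 29 members higher and 8 lower (median 0.086), where 30.4% and 26.4% of all genes were called, and the mitochondria-specific large-subunit proteins 5 of 20 higher and 9 lower (median -0.077). The bacterial-type small-subunit proteins had 6 of 16 higher and 4 lower, and the mitochondria-specific ones 1 of 11 higher (Mrps31) and 3 lower (Mrps36, Mrps22 and Mrps34). Mrps36 (-0.25) is now known chiefly as a component of the 2-oxoglutarate dehydrogenase complex. The central protuberance, which contacts transfer RNAs, had Mrpl55 and Mrpl38 higher and Mrpl48, Mrpl27 and Mrpl40 lower of 7. In the stalk that recruits translation factors, Mrpl12 was higher and Mrpl54 lower, of 4 measured. The difference between these groups was not tested.

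**Figure D2:**
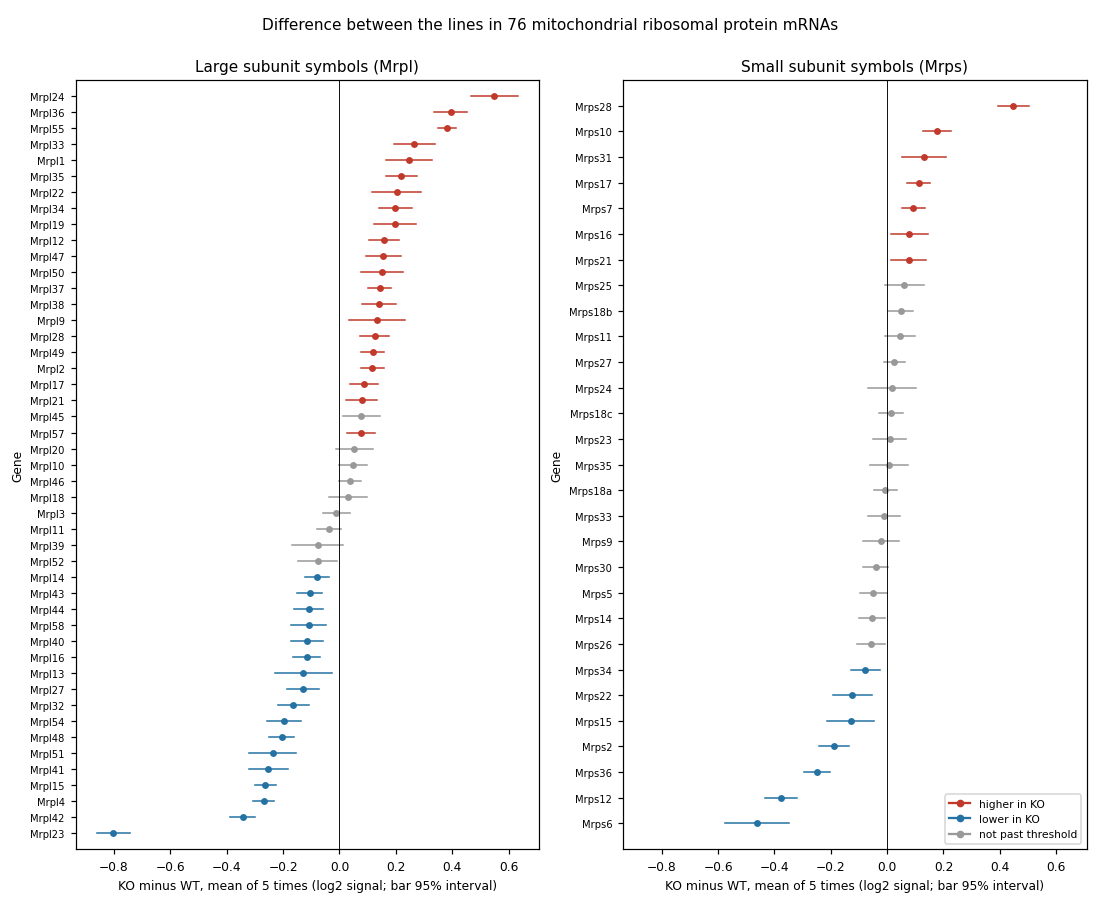
Difference between the lines (KO minus WT, mean of 5 times, log2 signal) for each of the 76 members, with bars for the 95% interval of the fit, red for members called higher in KO, blue for those called lower and grey for the rest. The 28 higher and 24 lower members lie on both sides of 0, with Mrpl23 at -0.80 and Mrpl24 at 0.55 as the extremes.

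At 0 min alone, after serum and before actinomycin D, 15 members were higher in KO and 11 lower (limma), against 16.0% and 13.0% of all genes tested. Experiments 1 to 3 alone gave 11 and 9, and experiments 4 and 5 alone, with 1 KO array at 0 min, 7 and 7. The leading members were largely those of the mean over times, with Mrpl24 at 0.59 ± 0.099 (SE; limma adjusted p = 6.42e-06) and Mrpl23 at -0.80 ± 0.071 (SE; limma adjusted p = 1.51e-12). Mrpl35, of the large subunit, entered the named group with 0.29 and Mrps36 with -0.25. Neither passed in experiments 4 and 5 alone (0.15, limma adjusted p = 0.256, and -0.19, adjusted p = 0.115), nor did Mrps6 (-0.30, adjusted p = 0.174). The Mrps6 difference of -0.42 (limma adjusted p = 0.0178) did not pass without replicate 1, 2 or 3 (adjusted p = 0.0732, 0.0502 and 0.0731). Mrpl33 (0.31, limma adjusted p = 0.00426) did not pass without replicate 2 (adjusted p = 0.0528). Without replicate 1 or without replicate 2, 6 members were lower in place of 11, and without replicate 4, which leaves 3 KO arrays, 9 were higher in place of 15.

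After actinomycin D the members split. In WT, 28 of the 76 were higher at 120 min than at 0 min and 13 lower (limma), against 11.1% and 16.4% of all genes tested, and the median change was 0.069 log2 against 0.033. In KO, 32 were higher and 11 lower, against 12.8% and 12.2%, with a median of 0.11 against 0.0068. By single experiment the members' median change ran from -0.044 to 0.1415 over 5 experiments in WT. In KO it ran from 0.0775 to 0.103 over 4 experiments. Changes were small, from -0.43 (Mrps2) to 0.33 (Mrps15) in WT and from -0.43 (Mrps35) to 0.37 (Mrps15) in KO, while Myc, an unstable mRNA, changed by -2.22 and -2.25 over the same time. In WT, experiments 1 to 3 alone had a median of 0.02 with 13 members higher and 12 lower, and experiments 4 and 5 alone a median of 0.14 with 35 higher and 8 lower. In KO the medians were 0.10 (22 higher, 9 lower) and 0.11 (11 higher, 5 lower); the second rests on 1 KO array at 0 min, which is assumed to vary like the other groups. With arrays centred on the cytosolic ribosomal proteins in place of the deposited scale, the split was 23 higher and 15 lower in WT, and 19 higher and 15 lower in KO. That centring took the median to 0.023 in WT and 0.048 in KO, and quantile normalisation took the KO median to 0.069. Without replicate 3 the KO counts were 19 and 7, and without replicate 4 they were 21 higher and 8 lower.

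Most members below were named for the size of their change, which favours arrays without overlap. The share of all genes without overlap between 0 and 120 min was not counted. Mrps15, whose bacterial relative binds rRNA early in assembly of the small subunit, led the rise. Its signals in WT were 10.39, 10.33, 10.42, 10.46 and 10.66 at 0 min and 10.58, 10.85, 10.73, 10.86 and 10.89 at 120 min. In KO they were 10.33, 10.28, 10.36 and 10.38 at 0 min and 10.61, 10.62, 10.75, 10.76 and 10.81 at 120 min. The KO groups did not overlap, and in WT only the array of experiment 1 at 120 min lay below the highest array at 0 min. The changes were 0.33 ± 0.093 in WT (SE; limma adjusted p = 0.00657) and 0.37 ± 0.099 in KO (SE; limma adjusted p = 0.00442), and a second Mrps15 probe set rose by 0.27 and 0.37. The WT change did not pass without replicate 2 (adjusted p = 0.0725) or without replicate 4 (adjusted p = 0.0541).

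Mrps21, another bacterial-type small-subunit protein, read 9.96, 9.88, 9.96, 10.12 and 9.99 in WT at 0 min and 10.14, 10.27, 10.31, 10.46 and 10.38 at 120 min, without overlap. Its WT change was 0.33 ± 0.068 (SE; limma adjusted p = 0.000234). Mrps18a, an S18 relative that sits in the large subunit despite its symbol, rose by 0.31 in WT and 0.24 in KO, with each 120 min array above each 0 min array. Mrps10 (0.32 and 0.29), Mrpl23 (0.33 and 0.30) and Mrpl42 (0.30 and 0.30) rose in both lines as well, and both Mrpl23 and Mrpl42 were lower in KO over the 5 times. In KO the named group also held Mrpl13 (0.35), Mrpl54 (0.32), Mrpl21 (0.31) and Mrps24 (0.30). Mrpl13 (limma adjusted p = 0.0268) did not pass without any 1 of replicates 1 to 4, with adjusted p from 0.0590 to 0.0705. Mrps24 (adjusted p = 0.0266) did not pass without replicate 2, 3 or 4 (limma adjusted p = 0.0698, 0.121 and 0.0506). Mrpl54 did not pass in experiments 4 and 5 alone (0.17, limma adjusted p = 0.281), nor did Mrps24 (0.20, adjusted p = 0.136). Mrps24 also did not pass with arrays centred on cytosolic ribosomal proteins (limma adjusted p = 0.0613) or in experiments 1 to 3 alone (adjusted p = 0.0531), nor Mrpl13 in experiments 1 to 3 alone (adjusted p = 0.0594). For Mrpl21 a dimmer probe set fell past the threshold in KO (-0.16, limma adjusted p = 0.0167), and the mean of its probe sets changed by 0.041 (adjusted p = 0.408).

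Mrps2, a protein of the small-subunit body, fell most in WT. The WT arrays read 9.54, 9.58, 9.49, 9.74 and 9.63 at 0 min and 9.11, 9.09, 9.08, 9.28 and 9.30 at 120 min. The KO arrays read 9.42, 9.40, 9.40 and 9.46, and then 9.09, 9.12, 9.06, 9.06 and 9.04. Neither line had overlap between the times, and the changes were -0.43 ± 0.059 in WT (SE; limma adjusted p = 1.76e-07) and -0.35 ± 0.063 in KO (SE; limma adjusted p = 3.91e-05). A second, dimmer Mrps2 probe set fell by less and did not pass in KO. It changed by -0.18 in WT (limma adjusted p = 0.00716) and by -0.10 in KO (limma adjusted p = 0.188). The group means of Mrps2 were 9.60, 9.64, 9.56, 9.41 and 9.17 at the 5 times in WT and 9.42, 9.43, 9.33, 9.18 and 9.07 in KO, similar at 0 and 30 min and lower at each later step.

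Mrps31, a mitochondria-specific small-subunit protein, read 9.42, 9.37, 9.38, 9.53 and 9.64 in WT at 0 min and 8.92, 9.04, 8.94, 9.17 and 9.22 at 120 min. In KO the signals went from 9.69, 9.56, 9.70 and 9.48 to 9.25, 9.17, 9.31, 9.08 and 9.22. The times did not overlap in either line, and the changes were -0.41 in WT and -0.40 in KO. Its means fell at each step, from 9.47 through 9.40, 9.29 and 9.20 to 9.06 in WT and from 9.61 through 9.56, 9.40 and 9.29 to 9.21 in KO. Mrps22, also mitochondria-specific, changed by -0.38 and -0.35, and Mrpl32, whose protein is matured by a mitochondrial protease before it joins the large subunit, by -0.31 and -0.27. Mrps35 changed by -0.27 in WT and -0.43 in KO, where its arrays went from 9.73, 9.54, 9.77 and 9.34 to 9.23, 9.18, 9.32, 9.04 and 9.06. Mrpl22 changed by -0.28 in WT and -0.29 in KO, the latter (limma adjusted p = 0.0344) lost without any 1 of replicates 1 to 4 (adjusted p from 0.0835 to 0.125). In experiments 4 and 5 alone the KO changes of Mrps31 (-0.33, limma adjusted p = 0.0585), Mrpl32 (-0.18, adjusted p = 0.180) and Mrpl22 (-0.24, adjusted p = 0.198) did not pass. Mrpl22 in KO also missed the threshold with median-centred arrays (limma adjusted p = 0.0645) and with background subtraction (adjusted p = 0.0510).

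**Figure D3:**
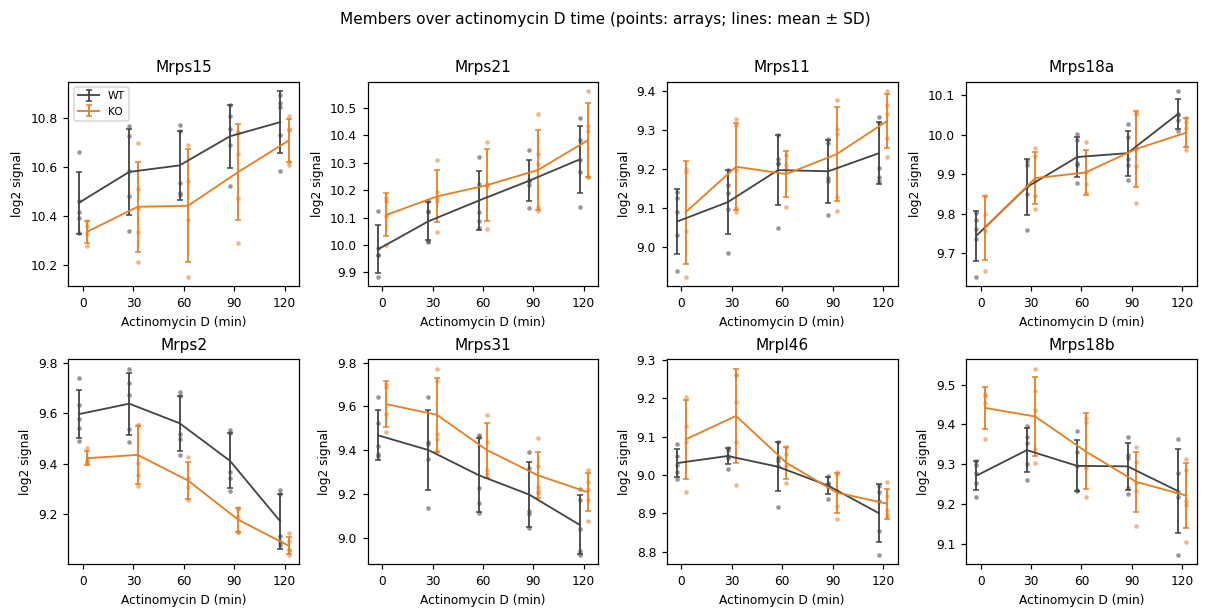
Log2 signal of 8 members against minutes of actinomycin D, with 1 point per array and lines through group means ± SD (WT grey, KO orange). Mrps15, Mrps21, Mrps11 and Mrps18a in the top row rise in both lines, Mrps2, Mrps31 and Mrpl46 fall in both, and Mrps18b falls in KO; the vertical scale differs between panels.

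Fallers and risers occurred within the same structural groups. In the bacterial-type small-subunit group 8 of 16 rose and 2 fell in WT, and 9 rose and 1 fell in KO (medians 0.16 and 0.16), where 11.1% of all genes rose and 16.4% fell in WT and 12.8% and 12.2% in KO. In the mitochondria-specific small-subunit group 3 of 11 rose and 3 fell in WT, and 3 rose and 4 fell in KO (medians 0.049 and 0.023). The bacterial-type large-subunit group had 9 of 29 up and 4 down in WT and 12 up and 3 down in KO, and the mitochondria-specific one 8 of 20 up and 4 down in WT and 8 up and 3 down in KO. Of the 4 stalk proteins measured, Mrpl54, Mrpl12 and Mrpl11 rose in both lines. At the exit site Mrpl23 rose in both lines while Mrpl22 and Mrpl45, a protein linked to the inner membrane, fell in both.

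The pair Mrpl46 and Mrps11, whose starts are 41 bases apart, moved in opposite directions. Mrpl46, in the central protuberance, went from 9.03 ± 0.036 (SD, n = 5) to 8.90 ± 0.075 (SD, n = 5) in WT and from 9.09 ± 0.10 (SD, n = 4) to 8.92 ± 0.039 (SD, n = 5) in KO, changes of -0.13 (limma adjusted p = 0.0224) and -0.17 (adjusted p = 0.00586). Mrps11, a protein of the small subunit's platform, rose from 9.07 ± 0.082 (SD, n = 5) to 9.24 ± 0.079 (SD, n = 5) and from 9.09 ± 0.13 (SD, n = 4) to 9.32 ± 0.068 (SD, n = 5), changes of 0.17 (limma adjusted p = 0.0244) and 0.23 (adjusted p = 0.00468). The Mrpl46 arrays at 0 and 120 min overlapped in KO, where the lowest at 0 min read 8.96 and the highest at 120 min 8.98, and not in WT; the Mrps11 arrays overlapped in neither line.

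The WT and KO changes share no arrays, but the lines were run side by side in the same experiments, and the part of shared days in their likeness was not tested. Of the members, 27 rose in both lines, or 35.5%, against 7.53% of all genes tested. These were 96.4% of the members that rose in WT and 84.4% of those that rose in KO, where the same shares over all genes were 67.9% and 59.0%. A further 10 members fell in both lines, or 13.2%, against 10.4% of all genes. They were 76.9% of the WT list and 90.9% of the KO list, against 63.3% and 84.8% over all genes. No member was called in opposite directions (0, against 4 of all genes tested). Across the 76 members the changes in the lines correlated with Pearson's r = 0.93, a description over genes, which are not independent. Over all 12999 genes r was 0.87. The genes tested had a median signal of 8.94, nearer the floor than the 9.73 of the members. The part of this in the shares and in r was not tested. Mrpl58, a peptidyl-tRNA hydrolase built into the ribosome, rose past the threshold in WT (0.21) and not in KO (0.11). Mrpl13, Mrpl18, Mrpl36, Mrpl57 and Mrps28 did so in KO (0.35, 0.23, 0.19, 0.19 and 0.18) and not in WT. Their WT changes were 0.25, 0.0016, 0.043, 0.049 and 0.15, respectively. Mrpl1 (-0.36), Mrpl44 (-0.34) and Mrps9 (-0.26) fell past the threshold in WT and not in KO (-0.23, -0.15 and -0.018), and Mrps18b fell in KO (-0.22) and not in WT (-0.039).

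**Figure D4:**
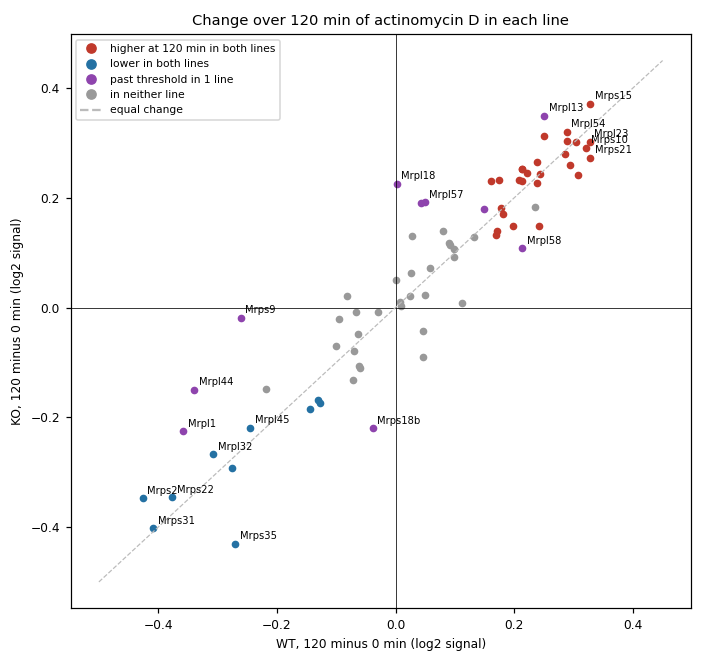
Change from 0 to 120 min of actinomycin D in KO (vertical, log2 signal) against that in WT (horizontal) for the 76 members, with the dashed line marking equal change. Red points rose in both lines (27), blue fell in both (10), purple passed the threshold in 1 line and grey in neither, and r over the points is 0.93.

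The difference in slope asks whether the signal of an mRNA fell faster or slower in the KO line than in the WT line. Because the array medians were alike, a slope may be relative to most other mRNAs and need not be a rate of decay. With the experiment as a block Mrps18b was called, as given below. The main fit, without that block, called no member: 0 higher and 0 lower by limma, against 1.08% and 0.323% of all genes tested. At an unadjusted p under 0.05 there were 3 members, or 3.95%, against 9.43% of all genes. The slope differences (KO minus WT) ran from -0.099 to 0.10 log2 per h, and the 95% intervals of all 76 members lay within -0.17 to 0.19. Ier3, an immediate-early gene, differed by 0.88 log2 per h on the same arrays (limma adjusted p = 2.75e-09), so a difference of that size lay outside each member's interval.

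The widest slope differences among members were Mrps9 (0.10 ± 0.044, SE), Mrpl44 (0.098 ± 0.038) and Mrpl18 (0.092 ± 0.051) above 0, and Mrps18b (-0.099 ± 0.032), Mrps35 (-0.080 ± 0.047) and Mrpl58 (-0.070 ± 0.043) below 0. Mrps18b, an S18 relative in the small subunit, had the lowest adjusted p (limma, 0.165). Its arrays in WT read 9.25, 9.22, 9.31, 9.30 and 9.28 at 0 min and 9.07, 9.22, 9.23, 9.28 and 9.36 at 120 min. In KO they read 9.48, 9.36, 9.45 and 9.47, then 9.20, 9.10, 9.29, 9.21 and 9.31. The KO times did not overlap and the WT times did; the slopes were -0.12 log2 per h in KO and -0.024 in WT. With the experiment as a block the Mrps18b difference was called (-0.10, limma adjusted p = 0.00999), as it was after quantile normalisation (-0.12, adjusted p = 0.0104). The other S18 relatives, Mrps18a and Mrps18c, rose in both lines.

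**Figure D5:**
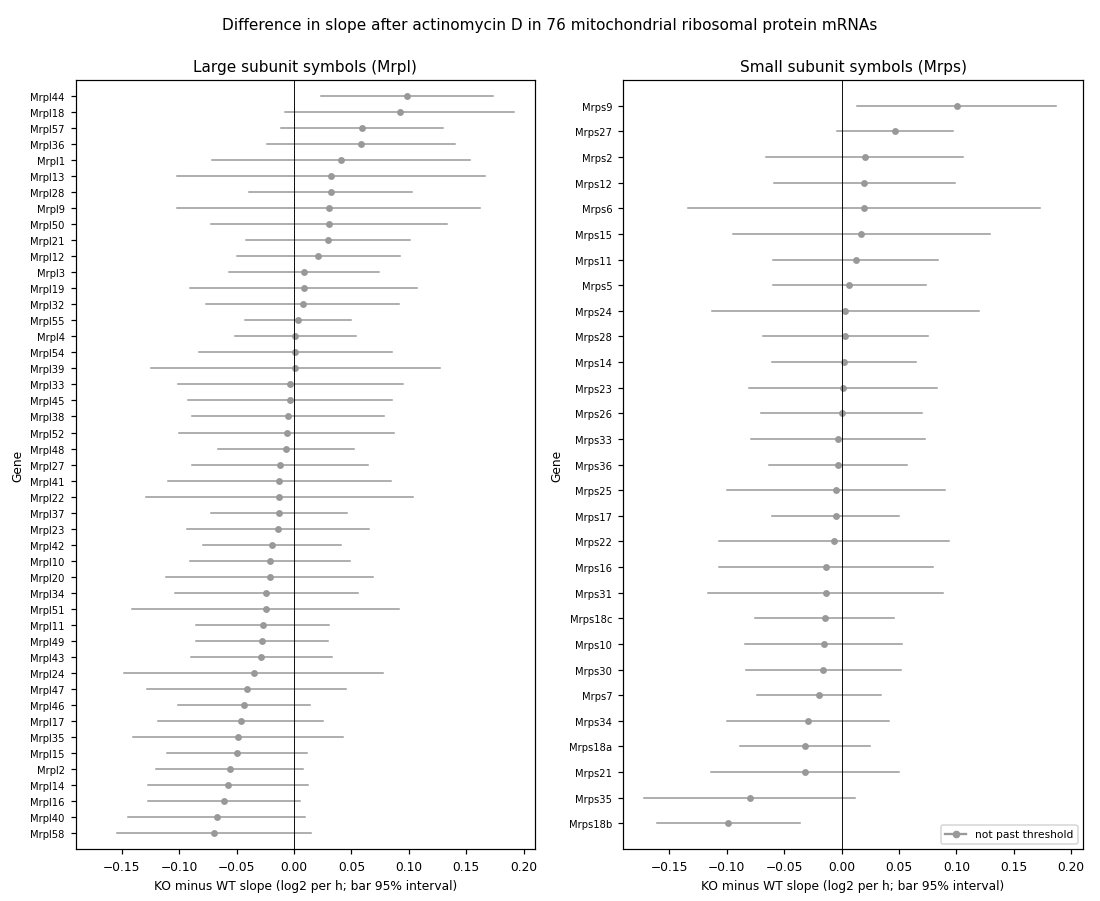
Difference in slope on actinomycin D time (KO minus WT, log2 per h) for each of the 76 members, with bars for the 95% interval. Points lie between -0.099 and 0.10 and none is past the threshold in this fit, which has no experiment block.

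Genes that work with this ribosome were read from lists, with up to 4 called genes named in each, except that all 5 genes of the activators introduced above are given for the difference between lines, a choice made after their values were seen. Of all genes tested, 30.4% were higher and 26.4% lower in KO over the 5 times. Of 4 measured mitoribosomal proteins with other symbols, Gadd45gip1 (0.32) and Ptcd3 (0.12) were higher in KO over the 5 times and Chchd1 lower (-0.15), and Dap3, a GTP-binding small-subunit protein, rose in WT (0.22) and KO (0.19). Of 12 mitochondrial translation factors, 3 were higher in KO, among them the elongation factors Gfm1 (0.25) and Tufm (0.12), and 3 lower, among them the recycling factor Mrrf (-0.45). Slirp, an RNA-binding protein, rose by 0.35 in WT and 0.37 in KO. Of 17 assembly and rRNA modification factors, 5 were higher in KO and 4 lower, with Gtpbp10, a GTPase of large-subunit assembly, at 0.46 and Nsun4, an rRNA methyltransferase, at -0.30. After actinomycin D, 1 of these 17 rose and 5 fell in WT, and 2 rose and 4 fell in KO, against 11.1% and 16.4% of all genes in WT and 12.8% and 12.2% in KO.

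Of 5 genes for mitochondrial transcription, Tfb2m (-0.39), Tfam (-0.12) and Tefm (-0.081) were lower in KO, and Mterf3 changed after actinomycin D by -0.77 in WT and -0.55 in KO. Of 9 nuclear regulators, 5 were higher in KO and 3 lower, where 30.4% and 26.4% of all genes were called. The GABP genes lay on both sides: Gabpa (0.099) and Gabpb2 (0.15) were higher and Gabpb1 lower (-0.21). Yy1 was higher (0.18) and Nrf1 lower (-0.063). The slope difference called 0 genes of each of these 5 lists, against 1.08% higher and 0.323% lower of all genes tested.

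Other large protein families of ribosome and mitochondrion gave a frame for the counts. Of 47 cytosolic ribosomal protein genes, 11 rose and 1 fell after actinomycin D in WT and 11 rose and 1 fell in KO (medians 0.045 and 0.063), against 11.1% and 16.4% of all genes in WT and 12.8% and 12.2% in KO. Of 76 oxidative phosphorylation genes, 47 rose and 0 fell in WT and 49 rose and 1 fell in KO (medians 0.18 and 0.19), so that the members, with 13 and 11 falling, held both directions. Over the 5 times 20 oxidative phosphorylation genes were higher in KO and 36 lower, against 28 and 24 members and 30.4% and 26.4% of all genes. No difference between these families was tested.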

How the data were processed

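RNA of 48 samples was hybridised to Affymetrix Mouse Genome 430 2.0 arrays (per the labels' protocols), with GeneChip Operating Software 1.2.0.037 as the scanner software. Signals were deposited per probe set on a log2 scale, as judged from their range; the authors' probe summary and normalisation are not given in the sources used here. Genes were named from the platform annotation. Of 45037 probe sets that are no controls, the 27500 above the array median in at least 4 arrays were tested with limma 3.58.1 (R 4.3.3; trend, robust): 1 mean per group, or a slope per line on time in hours. Adjusted p-values (Benjamini-Hochberg, two-sided, threshold 0.05) cover all probe sets tested. The script was tested on simulated data with independent arrays and no effect of the experiment. That test cannot speak for p-values where arrays of the same experiment resemble each other.

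The members and lists were chosen with earlier results of these data known. Named are the 6 highest and 6 lowest called members per comparison (3 and 3 where none was called), members at the threshold, 4 structural groups as counts, and members with an opposing probe set. Members named for wide differences are also likelier to show groups without overlap. The share of all genes without overlap was counted only for the lines over all arrays. Experiments share days across lines per the labels. Deviations of same-numbered samples from their group means correlated with r = 0.38, 0.34, 0.12, 0.33 and 0.60. With the other numbers the mean r was -0.076, -0.078, -0.0066, -0.10 and -0.18. Deviations from a common mean offset each other, so positive same-number values push the others negative. The numbers were taken to pair the samples, most weakly for replicate 3. The main fit did not use this pairing, and the replicate block is given as an alternative only. Alternatives were the replicate block, filter, scaling, background, probe set rule, fit options, left-out replicates and subsets of experiments. The number of arrays limits the precision.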

Additional observations from a re-analysis of the deposited data

Results flagged for a closer look

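In 120 groups of 4 or 5 arrays examined, over 11 members shown in detail and the mean of all members, 3 held an array far from the others of its group, where chance alone marks about 5% of groups. The mean of the 76 members was 9.66 on the KO array of experiment 2 at 0 min, with the other 3 between 9.73 and 9.74. Mrpl23 read 10.26 on the WT array of experiment 2 at 60 min, with the others between 10.09 and 10.13. Mrps6 read 10.46 on the KO array of experiment 4 at 0 min, with the others between 10.00 and 10.06.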

How the results depend on the processing

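Of 152 pairs of a member count and an alternative, 137 stayed within 1.5 times the reported count, and 0 values reversed. Experiments 4 and 5 alone, with 1 KO array at 0 min, gave 7 members higher and 7 lower at 0 min, 8 lower in the WT change, and 11 higher and 5 lower in the KO change; experiments 1 to 3 alone gave 13 higher in the WT change. Centring on cytosolic ribosomal proteins gave 19 higher in the KO change, and 36 higher and 21 lower between the lines. With the replicate block, and again with quantile normalisation, 1 member (Mrps18b) had a lower slope difference; the block changed no other count by over 1.5 times. The cause was not tested. With 1 replicate left out, counts ranged from 22 to 29 higher and 20 to 28 lower between the lines, 9 to 14 and 6 to 10 at 0 min, 19 to 28 and 9 to 13 in the WT change, 19 to 27 and 7 to 12 in the KO change, and 0 to 0 for slopes. Of 816 pairs for named members, 783 kept their call, 31 lost it and 2 gained it. Members next to the threshold were Mrps16 (adjusted p = 0.0426) and Mrpl45 (0.0504) between the lines, Mrps17 (0.0445) and Mrpl12 (0.0586) at 0 min, Mrpl28 (0.0398) and Mrpl50 (0.0521) in WT, and Mrpl33 (0.0477) and Mrps5 (0.0648) in KO, by limma. Signals near the floor are compressed, as for Mrps27 (8.42).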
